A study of Mus musculus with 8 samples.

Results

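Implantation sites of the connexin 43 knockout (KO) were set against implantation sites of wild type (WT), with 1 Affymetrix mouse array for each genotype. These are 2 of the 8 arrays of the series, which also hold 4 of blastocysts and 2 of mature (MII) oocytes. The design text of the series concerns how loss of connexin 43, a gap junction subunit whose gene is Gja1, changes the transcriptome at these early stages, and its title places the depletion in the oocyte. The labels name the tissue implantation site and call the material mouse embryo from that site. They give the genotype as KO or WT and the molecule as polyadenylated RNA. Strain, day of pregnancy, the Cre driver, pooling of sites and the genotype of the mother are not given in the sources used here, so it is not known whether the maternal tissue of the KO site lacked connexin 43. Of 45101 probe sets on the array, 34945 were annotated to 1 gene and read 18193 genes, of which 10802 had a mean log2 signal over both arrays at or above that of the brightest Bacillus control probe set and are called measured. With 1 array for each genotype no difference below has a replicate check, none was tested, and every value describes these 2 arrays only.

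Implantation begins when the blastocyst attaches to the uterine epithelium and stromal cells around it differentiate into decidua, a dense secretory tissue that surrounds the embryo. This change is driven by progesterone and estrogen acting through their receptors and by factors such as Hand2 and Bmp2, and it brings remodelling of vessels and of the leukocytes of the uterus. Connexin 43 forms the main gap junction channel of decidual stroma, of uterine smooth muscle and of the cumulus cells around the oocyte.

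Both arrays read as uterine tissue more than as embryo. Pgr, the progesterone receptor, read 30636 in KO and 27384 in WT, against at most 198 on the blastocyst arrays. Hand2, a transcription factor of progesterone-treated stroma, read 18803 in KO and 15722 in WT. Prss29, an implantation serine proteinase of the uterine glands, read 78375 in KO and 68635 in WT. Much of the uterine epithelium list was far dimmer: 23 of 30 genes with a probe set were measured, with a median signal of 398. The collagen chain Col1a1 read 39380 in KO and 38262 in WT. The signals of Pgr, Hand2, Prss29 and Col1a1 lie far above the brightest Bacillus control, which read 131 on the KO array and 174 on the WT array. Many markers of the embryo were at or near that level. The pluripotency factor Pou5f1 read 130 in KO and 210 in WT, against 997 to 1598 on the blastocyst arrays, and Nanog read 4.94 in KO and 10.6 in WT. Of the epiblast list 6 of 24 genes with a probe set were measured. Of trophoblast progenitor markers 10 of 28 were, with Cdx2 below the control on both arrays (111 in KO, 31.1 in WT) and Eomes above it (497 in KO, 389 in WT). Of these 10 markers 5 were higher in KO and 5 lower. Their median log2 difference, KO minus WT, was -0.01 (-0.43 to 0.40 over the processing alternatives), so the list had no lean. At least 2-fold higher in KO were 3 (30%, against 3.64% of all genes), and 0 were at least 2-fold lower. With dim readings held at the brighter of the control levels, 2 were at least 2-fold higher (against 2.86% of all genes). Of the trophoblast giant cell list 2 of 15 were measured, Hand1 (188 in KO, 215 in WT) and Plac8 (16916 in KO, 11446 in WT), and of 3 embryonic globins 0 were. Of the list of visceral and parietal endoderm 13 of 27 were measured, with the laminin chain Lamb1 (15806 in KO, 12819 in WT), the plasma carrier Ttr (8783 in KO, 4915 in WT) and the endoderm factor Sox17 (4243 in KO, 2872 in WT) bright and the yolk sac protein Afp below the control on both arrays (113 in KO, 65.0 in WT). Lamb1 is also a chain of maternal basement membranes and Sox17 a factor of endothelium and uterine epithelium. The summed signal of the epiblast list was 5291 in KO and 9245 in WT, that of trophoblast progenitor markers 11616 in KO and 11040 in WT, and that of the endoderm list 38654 in KO and 31689 in WT. These values go against a sample made mostly of embryo, though some embryo markers were read, and the samples are called implantation sites below. In such bulk tissue, fewer cells of a type and less RNA per cell cannot be told apart.

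**Figure D1:**
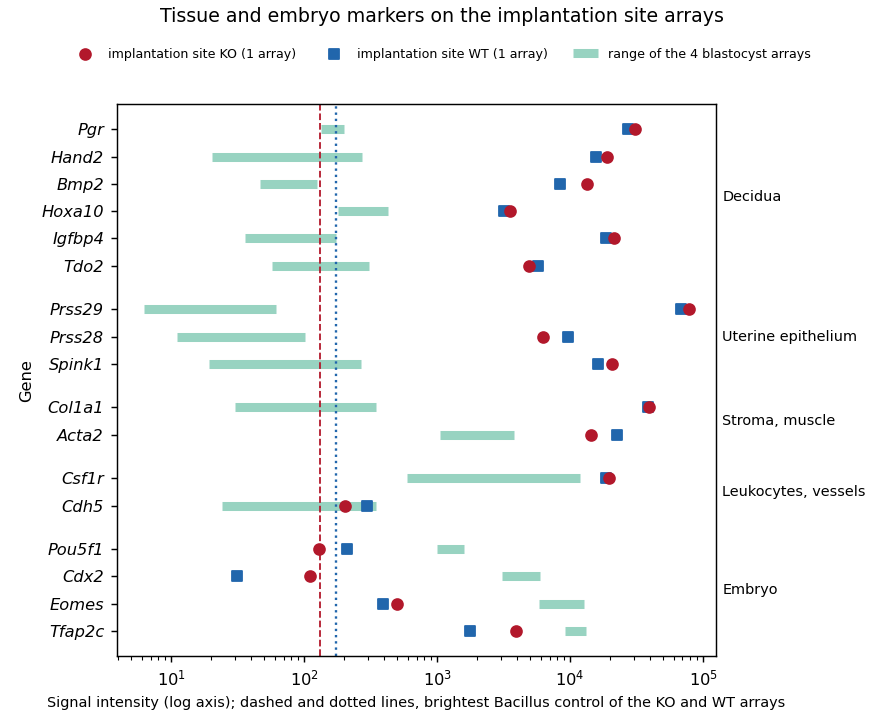
Signal intensity (log axis) of marker genes on the implantation site KO array (red circles) and WT array (blue squares), with the range over the 4 blastocyst arrays as green bars and the brightest Bacillus control of each implantation site array as vertical lines. The decidual, uterine epithelial and stromal markers chosen for display are bright on both arrays, the dimmest of them being Hoxa10 at 3532 in KO and 3207 in WT. Other members of the uterine epithelium list are dim. Pou5f1 and Cdx2 lie near the control lines or below them, and below their blastocyst range. Eomes, at 497 in KO and 389 in WT, lies above the control lines and below its blastocyst range.

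The targeted gene was lower on the KO array and still bright. Gja1 (gene identifier 14609) lies on chromosome 10 of GRCm38.p6 (56377300 to 56390419) and is read by 6 probe sets. The brightest read 28105 in KO and 44493 in WT, 1.58-fold lower in KO. The next 3 by mean signal read 7820, 4844 and 3153 in KO, against 20621, 10590 and 12301 in WT. A dimmer probe set read 893 in KO and 1380 in WT, and the dimmest read 599 in KO and 412 in WT, the other way. Thus 5 of 6 probe sets were lower in KO, by 1.55 to 3.90-fold, and all 6 exceeded the brightest control on both arrays. Which part of the transcript was deleted and where the probe sets lie on it are not given in the sources used here. Among other gap junction genes, Gjb2 (connexin 26), a connexin of uterine epithelium, read 870 in KO and 1440 in WT, and Gjc1 (connexin 45) read 5245 in KO and 4710 in WT. Of the 5 connexin and pannexin genes measured, Gja1 itself included, 4 were lower in KO, Gja1 among them. On the probe set that represents the gene, 0 of these 5 differed at least 2-fold.

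**Figure D2:**
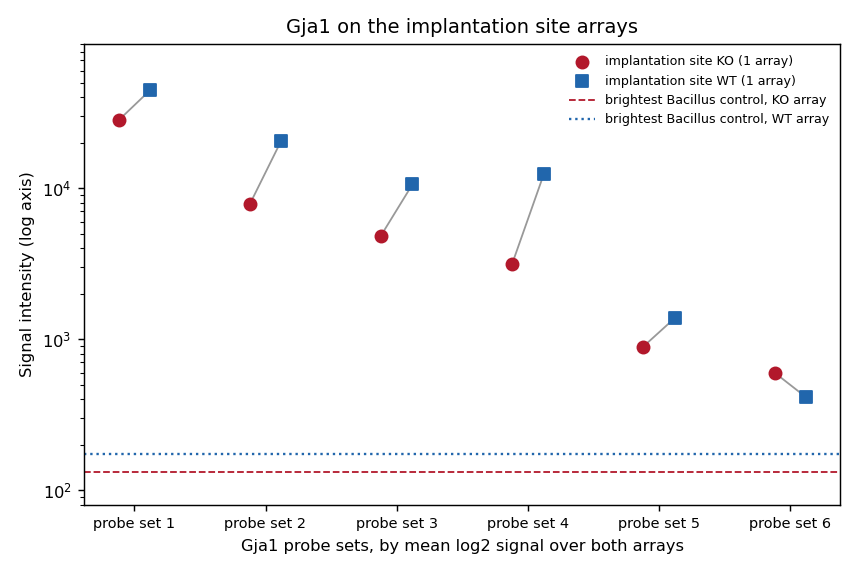
Signal intensity (log axis) of the 6 Gja1 probe sets on the implantation site KO array (red circles) and WT array (blue squares), ordered by mean log2 signal, with the brightest Bacillus control of each array as a line. In 5 of 6 probe sets the KO lies below the WT, and in the dimmest, at 599 in KO and 412 in WT, above it.

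Across the 10802 genes measured, 393 read at least 2-fold higher in KO (3.64%) and 1087 at least 2-fold lower (10.1%), and the median difference, as log2 signal KO minus WT, was -0.08. Of these, 26 were higher by 4-fold or more and 110 lower by as much. By any amount, 4868 of the genes measured were higher in KO (45.1%) and 5934 lower (54.9%). Counts of list members higher or lower below are to be read beside these shares. With dim readings held at the brighter of the control levels, 309 stayed 2-fold higher (2.86%) and 777 stayed 2-fold lower (7.19%). Distances of that order also separate arrays of 1 group: of the replicate blastocyst arrays, the KO pair was at least 2-fold apart in 572 of 6602 genes (8.66%) and the WT pair in 1263 of 8099 (15.6%), against 13.7% here. Each pair was filtered at its own brightest Bacillus controls. These read 535 and 560 for the KO blastocysts, 322 and 345 for the WT blastocysts and 131 and 174 here, so the shares rest on unlike brightness cuts. The WT blastocyst arrays also lay far apart in Gja1, at 9835 and 574 on its brightest probe set. The direction of the split between higher and lower genes depends on the scaling. As deposited, 26.6% of the genes at least 2-fold apart were higher in KO, after quantile normalization 43.8% were, and with both arrays scaled to a common median 76.6%. That last scaling adds 0.41 to every log2 difference, so that any list median given below between -0.41 and 0 lies above 0 under it. Differences followed brightness: from the dimmest to the brightest 20% of genes their medians were -0.39, -0.32, -0.12, 0.00 and 0.25. In the dimmest of these classes 22.3% of genes were at least 2-fold lower in KO, and in the brightest 1.06%. All 18 hybridization control probe sets were higher on the KO array, with a median of 0.67 on the log2 scale (0.30 to 1.13), and the Actb control read 27.9 times brighter at the 3' than at the 5' end in KO and 21.2 times in WT. The part of these technical signals in the gene differences was not tested.

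**Figure D3:**
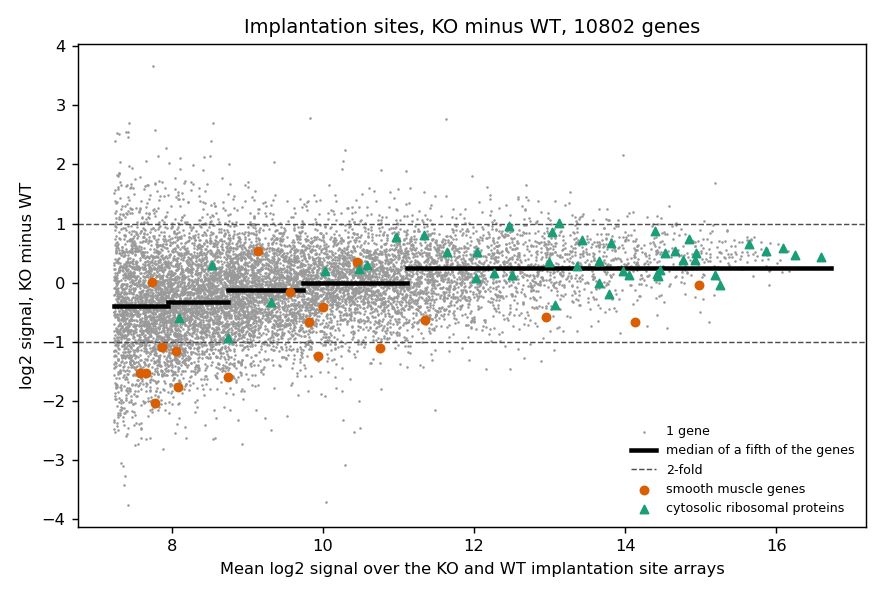
Difference in log2 signal, KO minus WT, of 10802 genes (grey) against their mean log2 signal over both implantation site arrays, with the median of each 20% of genes by brightness as black bars and 2-fold as dashed lines. Smooth muscle genes (orange circles) lie mostly below the bar of their class and cytosolic ribosomal proteins (green triangles) mostly above 0, and the bars climb to 0.25 at the bright end.

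A second probe set of the same gene often went another way. Over all genes, 3761 of 7047 other measured probe sets had the sign of the probe set that represents the gene (53.4%). For genes at least 2-fold higher this was 143 of 290 (49.3%), and for genes at least 2-fold lower 222 of 294 (75.5%). Probe sets of a gene read the same RNA and are no replicates. The other probe sets of all genes had a median of -0.13, on the lower side as well. Of the 193 genes followed through the processing alternatives, 43 had the opposite sign under at least 1 other choice of probe set.

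The 20 genes furthest above WT in KO had varied functions. Among them Ang, S100a8 and Ptx3 encode secreted or inflammatory proteins. Ang, which encodes the secreted ribonuclease angiogenin (chromosome 14, 51091077 to 51102009), read 2388 in KO and 345 in WT, 6.91-fold higher. Its 2 other measured probe sets differed by 0.67 and 0.00 on the log2 scale. S100a8 (chromosome 3, 90669071 to 90670034), a calcium-binding protein abundant in neutrophils, read 8258 in KO and 1209 in WT. The other 3 neutrophil markers measured did not share a difference of that size, with Cxcr2 at 114 in KO and 271 in WT and Mmp9 at 225 in KO and 454 in WT, both lower, and Mpo close, at 193 in KO and 188 in WT. Ptx3, a pattern recognition protein of the innate immune system that also builds the matrix of the cumulus, read 4217 in KO and 1132 in WT, 3.73-fold higher, but -0.56 on the log2 scale as the mean of all its probe sets. Rfc2, a subunit of the clamp loader of DNA replication, read 2726 in KO and 576 in WT, and its other probe sets were higher by 0.15 and 1.99. The nuclear import receptor Kpnb1 read 34032 in KO and 7613 in WT, while its other probe sets differed by -0.71 and 0.64. Ndufb3, a subunit of respiratory complex I, read 7499 in KO and 2142 in WT. Fat4 and Pcdh17, both cadherins, and Eva1b read 841, 769 and 955.2 in KO, against 159, 60.6 and 146 in WT, all 3 below the control on the WT array. The 20 genes were at least 3.30 to 6.91-fold higher when dim readings were held at 174, the brighter of the control levels, and in 7 of them the WT reading was at that level. Of 11 with another measured probe set, 2 (Ang and Rfc2) had all of them on the same side.

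The 20 genes furthest below WT in KO more often had other probe sets on the same side. Ggt5, a gamma-glutamyl transferase that cleaves leukotriene C4 (chromosome 10, 75589327 to 75617200), read 291 in KO and 3793 in WT, 13.04-fold lower, although its other measured probe set read 206 in KO and 223 in WT. Med18, a subunit of the Mediator complex of transcription, read 433 in KO and 3654 in WT. Prune2 read 567 in KO and 3253 in WT, and its other probe set was lower by -1.01 on the log2 scale. The repressor Cic read 268 in KO and 1503 in WT, the proteasome subunit Psmb7 614 in KO and 3365 in WT and the ubiquitin ligase Rnf139 552 in KO and 2761 in WT. Sdhc, a membrane anchor of succinate dehydrogenase, read 263 in KO and 1162 in WT, with its other probe set lower by -1.36. E2f5, an E2F transcription factor, read 1364 in KO and 6036 in WT, with its other probe set at 0.22. Ccn3, a matricellular growth regulator, read 117 in KO and 725 in WT, and the cytoskeletal septin Septin9 710 in KO and 2852 in WT. The 20 genes were at least 4.02 to 13.04-fold lower, 5 of them with the KO reading at the control level, and in 6 of 8 with another measured probe set all of those were lower too.

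Genes of smooth muscle, the contractile tissue of the myometrium and of vessel walls, read lower in KO as a group. All 19 with a probe set were measured. Of them 16 were lower, 9 of these at least 2-fold (47.4%, against 10.1% of all genes; 6 with dim readings held at the control level, against 7.19%), and 0 at least 2-fold higher, with a median of -0.67 against -0.08 over all genes. Cnn1 (calponin), an actin-binding regulator of contraction, read 248 in KO and 745 in WT. Actg2, the smooth muscle gamma actin, read 635 in KO and 1499 in WT, and Acta2, the alpha actin of smooth muscle and myofibroblasts, 14329 in KO and 22572 in WT. Itga8, an integrin subunit of contractile stromal cells, read 1173 in KO and 2530 in WT. The oxytocin receptor Oxtr, which drives uterine contraction, read 147 in KO and 502 in WT, and the potassium channel subunit Kcnmb1 178 in KO and 394 in WT. Smtn (109 in KO, 443 in WT), Casq2 (113 in KO, 324 in WT) and Lmod1 (120 in KO, 343 in WT) were below the control on the KO array, so that with readings held at 174 Smtn was at least 2.55-fold lower, Lmod1 at least 1.98-fold and Casq2 at least 1.86-fold. The actin-binding proteins Tagln (2103 in KO, 3238 in WT) and Synpo2 (6446 in KO, 9648 in WT) were lower by less than 2-fold, as was Myh11, the smooth muscle myosin heavy chain, at 894 in KO and 1183 in WT. Mylk, the kinase of the myosin light chain, read alike at 31763 in KO and 32433 in WT, and its other measured probe set read 414 in KO and 966 in WT. Des (desmin), which decidual stroma also expresses, read 682 in KO and 469 in WT, but -1.60 on the log2 scale as the mean of its probe sets, and Pgm5 1572 in KO and 1238 in WT. Over the list, the 4 other measured probe sets were all lower, with a median of -0.67. Set against the median of its own brightness class, the difference of a smooth muscle gene was -0.83 in the median. The list median lay between -1.09 and -0.26 over the processing alternatives. Summed over the list, the signal was 62324 in KO and 80058 in WT. Whether the 2 dissections took the same amount of muscle wall is not stated in the sources used here.

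**Figure D4:**
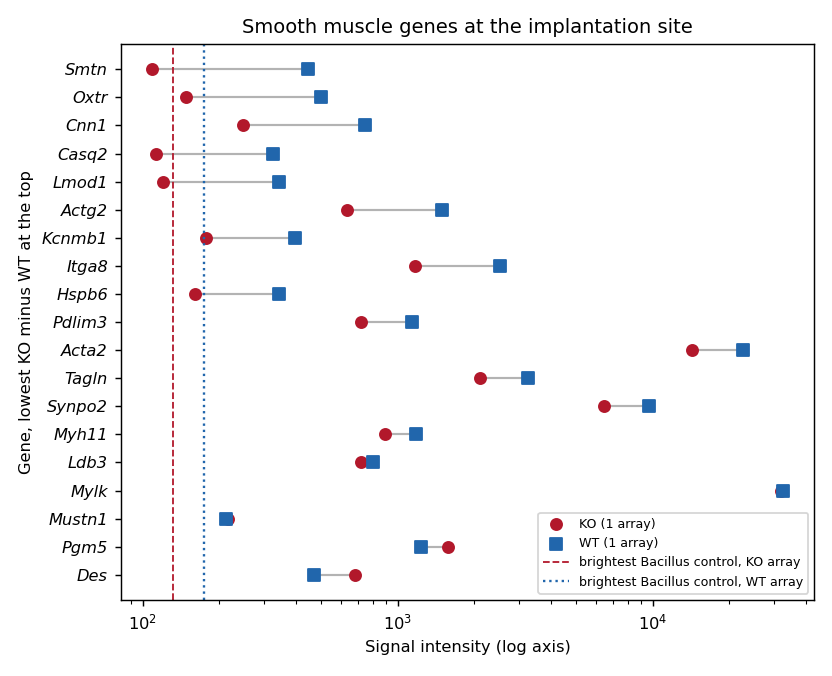
Signal intensity (log axis) of the 19 smooth muscle genes on the implantation site KO array (red circles) and WT array (blue squares), with the brightest Bacillus control of each array as a vertical line. The KO lies left of the WT in 16 of 19 genes, from Smtn at the top, and right of it in Mustn1, Pgm5 and Des.

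Regulators of decidualization mostly read within 2-fold of each other on the 2 arrays. Of 37 measured, 23 were higher in KO, 2 higher by 2-fold or more (5.41%, against 3.64% of all genes) and 1 lower by as much (2.70%, against 10.1%), with a median of 0.16. That median was 0.01 against the brightness class and -0.13 as the mean of all probe sets, and 14 of 34 other measured probe sets were higher, with a median of -0.17. The steroid receptor Esr1 read 9119 in KO and 8021 in WT, the stromal homeobox gene Hoxa10 3532 in KO and 3207 in WT and the progesterone receptor partner Klf9 24066 in KO and 21256 in WT. Bmp2, a morphogen that decidualization needs, read 13285 in KO and 8357 in WT, and Fst, an antagonist of activin made in decidua, 9053 in KO and 5058 in WT. Ereg, a ligand of the EGF receptor, read 603 in KO and 236 in WT. Ptgs2, the inducible cyclooxygenase that makes prostaglandin precursors at the site of attachment, read 528 in KO and 160 in WT, below the control there, so that it was at least 3.04-fold higher. Hoxa11, a homeobox gene that uterine stroma needs, read 531 in KO and 1296 in WT, the exception in the other direction. Of products of decidual cells 12 of 25 measured were higher and the median was -0.03. The tryptophan dioxygenase Tdo2 read 4916 in KO and 5744 in WT, Igfbp4 21240 in KO and 18586 in WT, and the serine protease Htra3 118 in KO and 418 in WT, at least 2.41-fold lower. The decidual prolactin Prl8a2 was near the control, at 217 in KO and 211 in WT. The connective tissue matrix list had a median of 0.04 over 31 measured genes and 1 member at least 2-fold apart, the matricellular thrombospondin Thbs2, at 633 in KO and 199 in WT. Thbs2 turned to -0.40 as the mean of its probe sets, to -0.79 after quantile normalization and to -1.06 on probe sets without a suffix for shared transcripts. Collagen genes were close on both arrays, with Col1a2 at 23306 in KO and 21174 in WT and Col3a1 at 47005 in KO and 37300 in WT. Members of prostaglandin synthesis other than Ptgs2 that stood at least 2-fold apart were Ptgis, the prostacyclin synthase, at 416 in KO and 126 in WT, and the phospholipase Pla2g10, at 311 in KO and 120 in WT, both below the control on the WT array. Of the 15 genes of that list 3 were higher by 2-fold or more (20%, against 3.64% of all genes) and 0 lower by as much, with a median of 0.10.

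Genes of the uterine epithelium were mixed. Of 23 measured, 13 were lower in KO, near the share of all genes (54.9%). Of the 23, 5 were at least 2-fold lower (21.7%, against 10.1% of all genes) and 1 was at least 2-fold higher (4.35%, against 3.64%). Their median was -0.33 (-0.16 against the brightness class, 0.08 with a common median). Foxa2, the transcription factor that uterine glands depend on, read 206 in KO and 517 in WT, and the secreted inhibitor Wfdc2 221 in KO and 654 in WT. The epithelial factor Elf3 read 87.6 in KO, below the control, and 266 in WT. The gland proteinase Prss28 read 6271 in KO and 9670 in WT, while its relative Prss29, given above (-0.62 on the log2 scale on the probe set without a suffix), and the inhibitor Spink1 (20482 in KO, 16166 in WT) were on the other side. Cdh1 (E-cadherin), the adhesion protein of epithelial junctions, read 718 in KO and 254 in WT. Channels and pumps that move water and ions across such layers read lower. Of 11 measured, 7 were lower (against 54.9% of all genes) and 4 at least 2-fold lower (36.4%, against 10.1% of all genes), with 0 higher by that size. Their median of -0.89 lay between -0.97 and -0.01 over the alternatives. Against the brightness class the median was -0.50. The water channel Aqp1, also of endothelium, read 424 in KO and 1576 in WT, the gland channel Aqp5 202 in KO and 464 in WT, the sodium-proton exchanger Slc9a3 133 in KO and 507 in WT and the pump regulator Fxyd3 258 in KO and 529 in WT. The sodium pump subunits Atp1b1 (4143 in KO, 3934 in WT) and Atp1b3 (2138 in KO, 2128 in WT) read alike. The 4 other measured probe sets of the list had a median of -0.01, with 2 of 4 higher.

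Endothelial genes read lower in KO more often than higher, and the factors that act on vessels the other way. Of 23 endothelial genes measured 18 were lower in KO (against 54.9% of all genes), 2 at least 2-fold (8.70%, against 10.1% of all genes) and 0 at least 2-fold higher, with a median of -0.28. These genes are mostly dim, and against the brightness class the median was -0.11. The lymphatic VEGF receptor Flt4 read 159 in KO and 379 in WT, the vessel protein Egfl7 435 in KO and 898 in WT and the endothelial cadherin Cdh5 201 in KO and 296 in WT. The VEGF receptor Kdr read 820 in KO and 493 in WT, and Flt1 read 725 in KO and 488 in WT, but -1.22 on the log2 scale as the mean of its probe sets. Of 12 angiogenic ligands and co-receptors 9 were higher, 2 of them at least 2-fold (16.7%, against 3.64% of all genes), and the median was 0.43 (0.18 to 0.84 over the alternatives). Vegfa, the main growth factor of vessels, read 946 in KO and 418 in WT, and Vegfc, its lymphatic relative, 2464 in KO and 1179 in WT, but -0.69 on the log2 scale on the probe set without a suffix. Adrenomedullin (Adm) read 11891 in KO and 8171 in WT. Apln, the ligand of the apelin receptor, read 325 in KO and 839 in WT. That receptor, Aplnr, read 21419 in KO and 19440 in WT, but -1.72 on the log2 scale on the probe set without a suffix. The other measured probe sets of these 12 genes did not lean the same way, with 5 of 11 higher and a median of -0.17.

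Genes of antigen presentation, which display peptides to T cells, had a median of -0.55 (-0.82 to -0.14 over the alternatives). Of 12 measured 8 were lower in KO (against 54.9% of all genes), 2 at least 2-fold (16.7%, against 10.1% of all genes). The class I chain H2-D1 read 997 in KO and 2542 in WT, H2-K1 1513 in KO and 2783 in WT, and B2m, the light chain they share, 8171 in KO and 9899 in WT. Tapbp, which loads class I molecules, read 1299 in KO and 2474 in WT. Class II chains split, with H2-Ab1 at 272 in KO and 593 in WT and H2-Aa at 3907 in KO and 2400 in WT (-0.16 on the log2 scale as the mean of its probe sets). Histocompatibility chains differ in sequence between mouse strains, and whether KO and WT share a strain is not stated in the sources used here. Among 24 interferon response genes measured 11 were higher in KO and 13 lower, near the share of all genes (54.9% lower). The median was -0.26 (-0.27 to 0.15), and -0.19 against the brightness class. At least 2-fold lower were 7 (29.2%, against 10.1% of all genes), and 0 were at least 2-fold higher. The 7 lower genes were the transcription factors Irf1 (611 in KO, 1237 in WT), Irf8 (392 in KO, 854 in WT), Irf9 (269 in KO, 540 in WT) and Irf7 (129 in KO, 335 in WT), Ifit2 (579 in KO, 1361 in WT), Ifit3 (143 in KO, 335 in WT) and Oas3 (139 in KO, 286 in WT). After holding dim readings at the control level 4 of the 7 remained at least 2-fold lower, against 7.19% of all genes. Bright members of the list were close, as with Rsad2 at 2406 in KO and 2885 in WT and Ifitm3 at 2953 in KO and 2674 in WT.

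Leukocyte markers were split on the probe sets that represent them. The macrophage list had 10 of 20 measured genes higher and a median of 0.01, but 2 of 14 other measured probe sets higher, with a median of -0.56, and the list median was -0.37 as the mean of all probe sets. In this list the receptor Csf1r read 19673 in KO and 18588 in WT and the complement chain C1qb 2065 in KO and 2189 in WT. Cd14, the lipopolysaccharide co-receptor, read 107 in KO and 474 in WT, at least 2.73-fold lower, and the monocyte chemokine receptor Ccr2 1362 in KO and 539 in WT, which turned to -1.09 on the log2 scale as the mean of its probe sets. Of uterine natural killer cell genes 6 of 12 were higher and the median was 0.05. Their granzymes Gzma (1865 in KO, 715 in WT) and Gzmb (1162 in KO, 648 in WT) were higher, while Il15ra, a subunit of the receptor for the cytokine that sustains these cells, read 198 in KO and 524 in WT. The summed signal was 72671 in KO and 59676 in WT for the macrophage list and 7497 in KO and 6152 in WT for the natural killer list.

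The series title names ribosomal and translational genes, so the following lists are not independent of its authors' findings. Cytosolic ribosomal proteins read higher in KO at the implantation site. Of 44 measured 38 were higher, with 1 at least 2-fold higher (2.27%, against 3.64% of all genes) and 0 at least 2-fold lower, and the median was 0.36. Rps24 read 12583 in KO and 6279 in WT, but -0.48 on the log2 scale on the probe set without a suffix. Rps26 read 11348 in KO and 6228 in WT, Rpl35 29174 in KO and 15838 in WT and Rps20 85303 in KO and 56884 in WT, the last at -0.63 on the log2 scale on the probe set without a suffix. Rpl37 and Rps27, both dim here, read 310 and 222 in KO, against 590 and 337 in WT, and Rplp0 7540 in KO and 9825 in WT. Of these 44 genes 36 were among the brightest 20%, whose median was 0.25, and set against the median of its own brightness class, the difference of a ribosomal gene was 0.19 in the median. The list median was 0.07 after quantile normalization and at most 0.77. Of the other measured probe sets 36 of 46 were higher, with a median of 0.44. Mitochondrial ribosomal proteins had a median of 0.03 over 72 genes, ribosome biogenesis genes 0.12 over 71 and translation factors 0.12 over 47. The nucleolar helicase Ddx52 read 906 in KO and 294 in WT and the ribosomal RNA methyltransferase Nop2 222 in KO and 661 in WT, the furthest apart in each direction among biogenesis genes, with Ddx52 at -0.05 on the log2 scale as the mean of its probe sets. Among translation factors, Eif2b1, a subunit of the guanine exchange factor of eIF2, read 430 in KO and 1389 in WT, and Eif4b, a helper of the initiation helicase, 3418 in KO and 9427 in WT. Subunits of initiation factor 3 were on the other side, with Eif3i at 12093 in KO and 5354 in WT and Eif3c at 10244 in KO and 5082 in WT, although on probe sets without a suffix these were -0.03 and -0.07 on the log2 scale. In all, 3 of the 47 translation factors were higher by 2-fold or more (6.38%, against 3.64% of all genes) and 4 lower by as much (8.51%, against 10.1%).

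**Figure D5:**
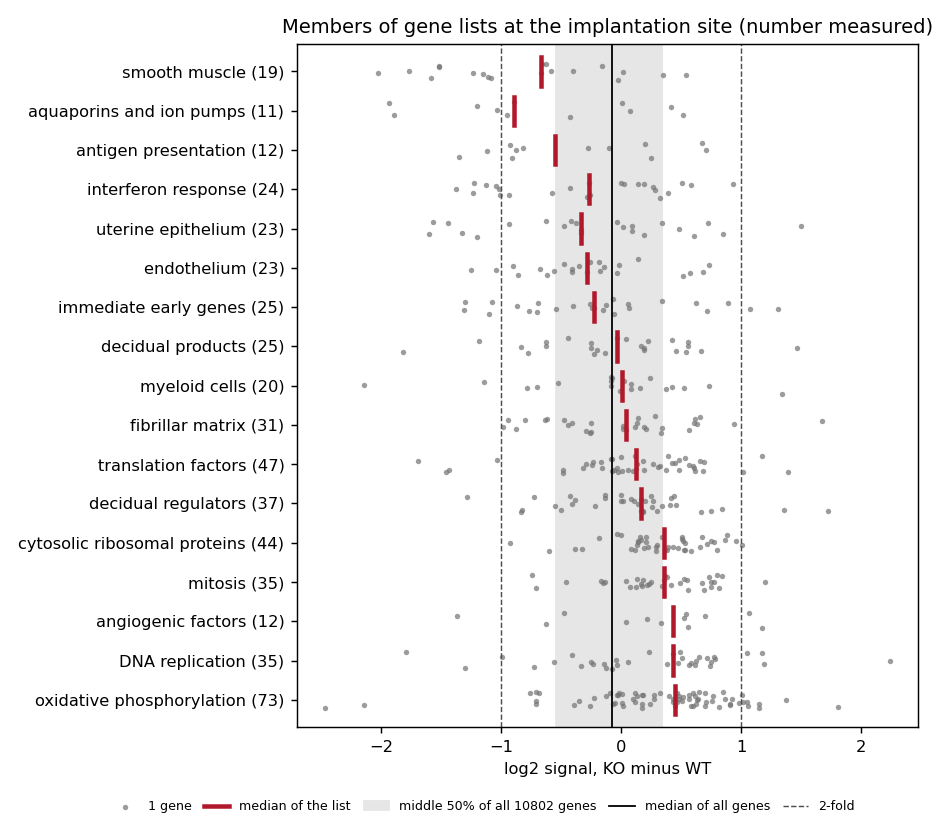
Difference in log2 signal, KO minus WT, of each measured member (grey points) of 17 gene lists at the implantation site, with the list median in red, the median of all genes as a black line and the middle 50% of all genes shaded. Smooth muscle (-0.67), aquaporins and ion pumps (-0.89) and antigen presentation (-0.55) have the lowest medians, and oxidative phosphorylation (0.45), angiogenic factors (0.43) and DNA replication (0.43) the highest.

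Genes of oxidative phosphorylation, the mitochondrial chain that makes ATP, had a median of 0.45 (0.10 to 0.86 over the alternatives), with 55 of 73 higher in KO. Against the brightness class the median was 0.23. At least 2-fold higher were 8 (10.96%, against 3.64% of all genes), of which 7 were subunits of complex I. Ndufa12 read 13841 in KO and 5329 in WT, Ndufa13 14923 in KO and 6715 in WT, and Ndufb3 is given above. At least 2-fold lower were Sdhc, given above, and the muscle subunit of cytochrome oxidase Cox6a2, at 64.2 in KO, below the control, and 355 in WT. Other probe sets of the list were higher in 42 of 57 cases, with a median of 0.36, and 44 of the 73 genes were among the brightest 20%.

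Most mitosis genes read higher on the probe sets that represent them. Of 35 mitosis genes 29 were higher, 1 at least 2-fold (2.86%, against 3.64% of all genes), with a median of 0.36 (0.17 to 0.77). That one was Cdc20, the activator of the anaphase-promoting complex, at 26548 in KO and 11594 in WT, and its other measured probe set read 1683 in KO and 1730 in WT. Top2a, a topoisomerase, read 6612 in KO and 3933 in WT (-0.39 on the log2 scale as the mean of its probe sets), and the proliferation marker Mki67 4586 in KO and 3143 in WT. Of the other measured probe sets 10 of 25 were higher and their median was -0.26, so the lean of the list depended on which probe set stood for a gene. Of 35 DNA replication genes 21 were higher, 4 of them at least 2-fold (11.4%, against 3.64% of all genes), and 2 were at least 2-fold lower (5.71%, against 10.1%), with a median of 0.43 (-0.06 to 0.84). That median was 0.24 against the brightness class, and 13 of 29 other measured probe sets were higher, with a median of -0.03. The clamp loader subunits Rfc4 (2073 in KO, 908 in WT) and Rfc5 (575 in KO, 254 in WT) were on the side of Rfc2, Rfc4 at -0.01 on the log2 scale on the probe set without a suffix. The replication helicase subunit Cdc45 (195 in KO, 673 in WT) and the thymidylate synthase Tyms (184 in KO, 453 in WT) were on the other.

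Signalling genes held some of the larger single differences among bright genes. Immediate early genes had a median of -0.23 over 25 genes, with 4 at least 2-fold lower (16%, against 10.1% of all genes) and 2 at least 2-fold higher (8.00%, against 3.64%). Fos read 18318 in KO and 31271 in WT, Btg2 1769 in KO and 4382 in WT and Klf4 2502 in KO and 6151 in WT, while Jund read 15587 in KO and 7416 in WT (-0.40 on the log2 scale as the mean of its probe sets) and Dusp6, a phosphatase of ERK kinases, 1005 in KO and 405 in WT. Egr1 was close, at 17405 in KO and 20408 in WT. In the Notch list 10 of 14 genes were lower (against 54.9% of all genes), 3 at least 2-fold (21.4%, against 10.1% of all genes) and 0 at least 2-fold higher (median -0.21). With dim readings held at the control level 2 of them remained. The receptor Notch1 read 647 in KO and 2310 in WT and the target gene Hey1 184 in KO and 383 in WT, whereas Notch2 read 17102 in KO and 20072 in WT and the ligand Jag1 1551 in KO and 1350 in WT (-0.26 on the log2 scale as the mean of its probe sets). Of Wnt genes 4 of 30 were at least 2-fold lower (13.3%, against 10.1% of all genes) and 2 at least 2-fold higher (6.67%, against 3.64%), with a median of -0.08, so these shares were near those of all genes. The secreted antagonist Sfrp1 read 559 in KO and 1272 in WT and the feedback gene Axin2 218 in KO and 475 in WT, while the nuclear effector Lef1 read 3107 in KO and 1325 in WT and the receptor Fzd4 474 in KO and 108 in WT, at least 2.73-fold higher. Igf1r, the receptor of insulin-like growth factor 1, read 935 in KO and 2077 in WT, and its ligand Igf1 13259 in KO and 15954 in WT. Of metalloproteinases and their inhibitors 16 of 23 were lower (against 54.9% of all genes), 3 at least 2-fold (13.04%, against 10.1% of all genes), with a median of -0.27. The membrane collagenase Mmp14 read 400 in KO and 1047 in WT and the gelatinase Mmp2 3801 in KO and 6952 in WT. The aggrecanase Adamts4 read 2283 in KO and 1029 in WT, but -0.20 on the log2 scale as the mean of its probe sets.

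Some of the genes that differed were already above the background in blastocysts. Above the brightest control on all 4 blastocyst arrays were 141 of the 393 genes at least 2-fold higher in KO (35.9%) and 279 of the 1087 at least 2-fold lower (25.7%), against 41.2% of all genes measured. Counted over list members with a probe set, measured or not, 44 of 48 ribosomal proteins and 67 of 79 oxidative phosphorylation genes were above it there. Of smooth muscle genes 1 of 19 was, and of endothelial genes 0 of 28. Of 52 lists with at least 5 measured genes, 3 had a median past 0.5 in size as deposited, those of smooth muscle, antigen presentation and aquaporins and ion pumps, and all 3 were lower in KO. This depends on the scaling. With a common median these lists were at -0.26, -0.14 and -0.48, all within 0.5. Under that scaling other lists were past 0.5 on the higher side, among them oxidative phosphorylation (0.86), angiogenic factors (0.84) and DNA replication (0.84).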

How the data were processed

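Polyadenylated RNA was measured on 8 arrays, 1 each for the implantation site KO and WT. The deposited table holds signal intensity on a linear scale, made by the authors with MAS5 per the submitters' processing notes, which give no version here. Every array had a 2% trimmed mean of 500, and no detection calls are in the table. Background was therefore read from 27 Bacillus control probe sets, which assumes that no Bacillus RNA was added, a point the sources do not state. For arrays, depth has no count, and 1 array for each genotype limits the precision.

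Left out were 932 probe sets with several genes, 9160 with none and 64 controls. Symbols follow the GRCm38.p6 gene table of RefSeq. A gene was represented by its probe set of highest mean log2 signal over both arrays and kept where that mean, as a signal, reached 151. Differences are log2 signal, KO minus WT. A bound ("at least") holds dim readings at 174. Lists (63, of 1682 genes, 1568 with a probe set and 1164 measured) are given by counts and medians. Named genes were Gja1, the 20 largest differences in each direction with dim readings held at 174, and any list member given with both values. Genes known by a clone or model name alone, 5 of those at least 2-fold higher and 37 of those at least 2-fold lower on that scale, were counted and not named. Members and lists were chosen with earlier results of these data known.

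The alternatives were quantile normalization, a common median, a floor, a pseudocount of 29.9, no filter, the upper 50% of probe sets over all arrays, and other probe set choices. The calculation was tested on simulated data. Python 3.11.15, numpy 2.4.6, pandas 2.3.3 and matplotlib 3.10.9 were used.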

Additional observations from a re-analysis of the deposited data

Results flagged for a closer look

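For 10 of 52 gene lists both KO blastocyst arrays lay on one side of both WT blastocyst arrays in the list's median log2 signal, while at the implantation site the median of the members' differences and the difference of the list's medians both went the other way. Not every list with such a blastocyst order went the other way. The lists of basement membrane, imprinted genes and aquaporins and ion pumps were lower in KO at both stages, with implantation site medians of -0.14, -0.06 and -0.89. In others, among them endothelium and keratins, the implantation site measures had opposite signs. The difference between the stages was not tested, and implantation sites have 1 array for each genotype. Mitosis genes had a median difference of 0.36 at the implantation site, whereas their median level in blastocysts was 10.62 and 10.58 in KO, against 11.05 and 10.88 in WT. DNA replication genes had 0.43 at the implantation site, and their blastocyst levels were 10.59 and 10.49 in KO, against 10.82 and 10.73 in WT. Uterine epithelium genes had -0.33 at the implantation site, with blastocyst levels of 8.84 and 8.18 in KO, against 7.502 and 7.80 in WT. Genes of cholesterol synthesis and uptake had -0.36 at the implantation site, with blastocyst levels of 10.41 and 10.37 in KO, against 10.20 and 10.34 in WT. Metalloproteinases and their inhibitors had -0.27 at the implantation site, with blastocyst levels of 8.47 and 8.41 in KO, against 7.36 and 7.50 in WT. Genes of tryptophan and polyamine metabolism had -0.21, with blastocyst levels of 9.53 and 9.19 in KO, against 8.76 and 8.39 in WT, and gastrula markers -0.19, with 9.47 and 8.83 in KO, against 8.35 and 8.60 in WT. Ribosome biogenesis genes (0.12), heat shock genes (0.031) and genes of complement and coagulation (-0.025) were nearer 0 at the implantation site. The brightest Bacillus control read 535 and 560 on the KO blastocyst arrays, against 322 and 345 on the WT blastocyst arrays. The medians of uterine epithelium, of metalloproteinases and of complement and coagulation lay below it on every blastocyst array. The part of this background in the blastocyst order of the lists was not tested. Of these 10 lists mitosis genes alone kept the sign of their implantation site median in every alternative run. Uterine epithelium and cholesterol genes lay above 0 at the implantation site with a common median (0.08 and 0.05), and replication genes below 0 under another alternative (-0.06).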

How the results depend on the processing

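No paired analysis was possible because each genotype has 1 implantation site array, and for the same reason no replicate could be left out. The counts of genes at least 2-fold apart moved by over 1.5 times with a common median (1413 higher, 432 lower), without the filter (1835 higher, 4113 lower) and, for lower genes, after quantile normalization (698). Of the 393 higher genes 324 and of the 1087 lower genes 646 remained after quantile normalization. Dropping the filter moved the median of all genes by -0.11. Gja1 was lower in KO under every alternative run. Reversals, on the log2 scale, were of genes higher in KO apart from Sgce. As the mean of all probe sets Adamts4 was -0.20, Ccr2 -1.09, Ddx52 -0.047, Jund -0.40, Kpnb1 -0.33, Lcorl -0.15, Meg3 -0.29, Ptx3 -0.56 and Thbs2 -0.40. On probe sets without a suffix Cdc20 was -0.040, Eif3c -0.071, Eif3i -0.026, Kpnb1 -0.71, Rfc4 -0.0066, Rps24 -0.48, Sgce 0.44, Thbs2 -1.06, Tmod3 -0.89 and Vegfc -0.69. On the probe set brightest over all arrays Ccr2 was -0.35, Ecrg4 -0.92, Lcorl -1.29 and Prr11 -0.84, and after quantile normalization Ntmt1 was -0.78 and Thbs2 -0.79. Other values of named genes kept their sign or were under 2-fold at first, as counted in 1418 values within the spread of replicate blastocyst arrays and 180 beyond it. For list medians these were 382 and 82. That spread is a loose measure for genes dim in blastocysts. Of smooth muscle genes, 1 of 19 was above the control on all 4 blastocyst arrays. It can also be wide, as the brightest Gja1 probe set read 9835 and 574 on the 2 WT blastocyst arrays. A value within it can still have moved, as did the smooth muscle median, from -0.67 as deposited to -0.26 with a common median. The medians of smooth muscle, antigen presentation, aquaporins and ion pumps, ribosomal proteins, oxidative phosphorylation, mitosis and angiogenic factors kept their sign in every alternative run, and those of the other 45 lists did not. Dim genes limit the sizes: 34.4% of higher genes had a WT reading and 32.8% of lower genes a KO reading at the control level.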

Other observations

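Genes that blastocysts expressed more than implantation sites leaned lower in KO, a grouping made after the values were seen. Of 49 measured genes whose median blastocyst signal was at least 16-fold above their mean implantation site signal, 41 were lower in KO, 18 of them at least 2-fold (36.7%, against 10.1% of all genes), and their median was -0.76. Genes 4 to 16-fold brighter in blastocysts had a median of -0.36 (485 genes), and those at least 16-fold dimmer in blastocysts one of 0.15 (501 genes). The order was similar among genes with a mean signal under 585, from -0.74 for the genes brightest in blastocysts to -0.18 for those dimmest there. Among genes at or above 585 the medians differed less outside the class brightest in blastocysts. They were 0.17 for the genes dimmest there, 0.08 for those up to 4-fold brighter and -0.08 for those 4 to 16-fold brighter. The class brightest in blastocysts held 9 such genes, with a median of -0.88. Among the 49, Dppa5a, a pluripotency-associated RNA-binding protein, read 185 in KO and 263 in WT, against 23784 to 35300 on the blastocyst arrays, and the keratin gene Krt18 288 in KO and 551 in WT, against 6883 to 9768. Nrip2 read 190 in KO and 1258 in WT, with 18776 to 151578 in blastocysts, Pik3cd 2743 in KO and 7558 in WT, with 105005 to 169895, and Rab6b 352 in KO and 1203 in WT, with 5362 to 96787. The trophoblast regulator Eomes and the methyltransferase Dnmt3b were on the other side, at 497 and 1218 in KO, against 389 and 833 in WT. The blastocyst arrays themselves spread widely in some of these genes, and the part of dimness in this lean was not tested beyond the classes given.

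Coagulation genes that the report does not describe had large readings in both directions. The fibrinogen chains Fga and Fgg read 364 and 296 in KO, against 982 and 738 in WT, and the complement inhibitor Cfi 533 in KO and 1399 in WT. The protease inhibitor Tfpi2 read 551 in KO and 174 in WT. The list of complement and coagulation had 10 of 21 measured genes higher and a median of -0.03. Among imprinted genes, Peg3 read 2021 in KO and 889 in WT, Meg3 6906 in KO and 3388 in WT (-0.29 on the log2 scale as the mean of its probe sets), and Sgce 234 in KO and 564 in WT (0.44 on probe sets without a suffix), with a list median of -0.06 over 13 genes. The plakophilin Pkp3, a desmosome protein of epithelia, read 50.8 in KO, below the control, and 540 in WT, at least 3.11-fold lower, and the forkhead gene Foxf1, of visceral mesenchyme, 102 in KO and 448 in WT, at least 2.58-fold lower. No Y-linked probe set (0 of 9) exceeded the control on either array.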
